A study of Mus musculus with 8 samples.

Results

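Cholesterol synthesis and SREBP2 genes were followed in mouse embryonic fibroblasts through 8 genes chosen by name: Hmgcs1, Idi1, Sqle, Lss, Srebf2, Insig1, Insig2 and Stard4. All 20 of their probe sets among the 45037 on the arrays other than controls were read, and all 8 genes passed the filter on low values that left 13647 of 18193 genes to test. The cells were fibroblasts of C57BL6/J embryos at embryonic day 14.5, either wild type for Hif-p4h-1 (Hif-p4h-1+/+) or lacking it (Hif-p4h-1-/-), and each genotype was studied in normoxia and in hypoxia. Hif-p4h-1, the product of Egln2, is an oxygen-dependent prolyl hydroxylase whose action on hypoxia-inducible factor (HIF) leads to the loss of that factor in oxygenated cells. The series title sets the genotypes against each other in both oxygen conditions. Each of the 4 resulting groups has 2 arrays, 1 in a first set and 1 in a set that the titles mark as the second. The sources used here give neither the oxygen level nor the length of exposure. The labels do not say whether both arrays of a group had embryos or cultures of their own, so p-values reflect the spread among these arrays, and that spread may be technical.

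Cells make cholesterol from acetyl-CoA in a long series of enzyme steps, several of which use molecular oxygen directly. The pathway is governed by SREBP2, a transcription factor held in the endoplasmic reticulum membrane as a precursor. When membrane sterol is low, the escort protein SCAP carries the precursor to the Golgi, where proteases release the active part, and it binds sterol regulatory elements in the promoters of synthesis and uptake genes. When sterol is high, INSIG proteins hold SCAP back in the endoplasmic reticulum. INSIG proteins also promote the degradation of the rate-limiting reductase of the pathway and of other sterol enzymes, and in cultured cells HIF has been linked to INSIG transcription.

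The values are log2 expression values per probe set made with RMA, a method that corrects background, brings the arrays to a common distribution and summarises the probes of a set. A difference of 1 on this scale is a doubling, and levels of different probe sets cannot be set against each other. Array medians lay between 5.01 and 5.12, and values between 2.09 and 14.71. The hypoxia labels were checked with Bnip3, Pdk1, Car9 and Ankrd37, HIF-responsive genes, whose median response was 3.46 (first set) and 3.39 (second set). Egln2 read 8.84 to 9.13 on the wild-type arrays and 8 to 8.85 on the knockout arrays. Its probe set may or may not read the deleted part, which no source used here states, so this checks the genotype labels only in part. Of the 10 fibroblast markers all were measured and none fell below the filter, while 2 of 7 hepatocyte markers did. The arrays of a set deviated together. Across genes, the second-minus-first difference correlated between groups at 0.71 to 0.85. All tests below come from limma with the set as a term, adjusted by Benjamini-Hochberg over all tested genes, and a gene is said to rise or fall where its adjusted p is under 0.05. In this whole-culture RNA, fewer cells of a type and less RNA per cell cannot be told apart.

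Hypoxia raised 5 of the 8 genes over both genotypes. Sqle and Stard4 rose by 1.62-fold and 1.58-fold and were called in all 8 fits with 1 array left out. Idi1, Insig1 and Srebf2 also rose, by 1.4-fold, 1.51-fold and 1.28-fold, and Hmgcs1, Lss and Insig2 did not pass the test. All 8 differences were positive. Much of this response came from the first set of arrays. Over all genes tested, 13.6% were called higher and 28.7% in either direction, so a count of 5 of 8 is read against a background that is itself high. The median difference of the 8 was 0.42 on the log2 scale, against 0.0075 over all tested genes. Within each of the 4 pairs of same genotype and set, hypoxia was higher than normoxia for 6 of the genes, against 23.8% of all genes. The 4 hypoxic and the 4 normoxic arrays did not overlap for 3 of them, Sqle, Insig1 and Stard4, against 7.09% of all genes. None of the 8 changed with genotype. Without the set as a term in the fit none of the 8 passed for oxygen (adjusted p = 0.185 to 0.782).

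**Figure D1:**
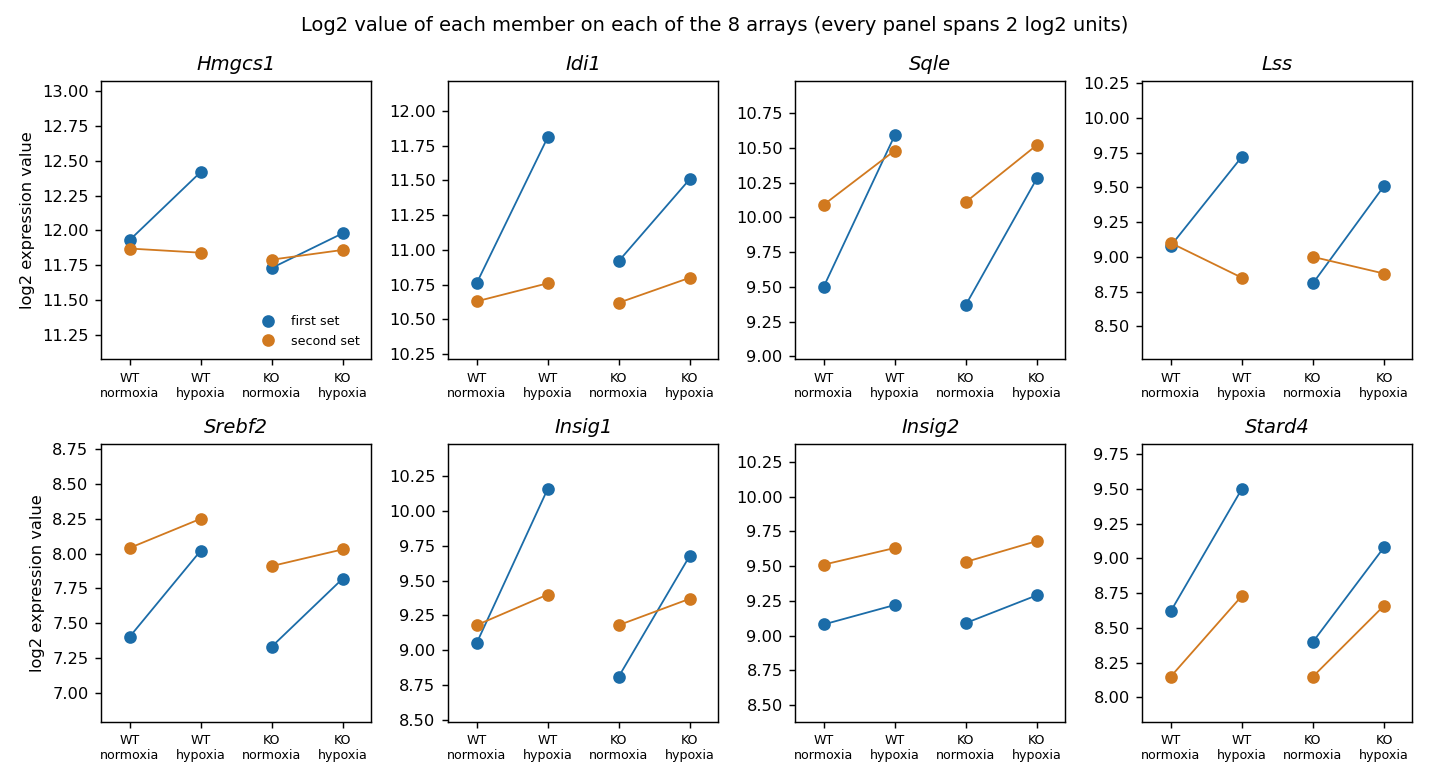
Log2 expression value (vertical axis) of the 8 genes on each of the 8 arrays, 1 panel per gene, by genotype and oxygen condition (horizontal axis); each point is an array, blue for the first set and orange for the second, and a line joins normoxia to hypoxia within a genotype and set. Every panel spans the same number of log2 units. The blue lines rise more steeply than the orange ones for Hmgcs1, Idi1, Sqle, Lss, Srebf2 and Insig1, while for Insig2 and Stard4 the lines of both sets run nearly side by side.

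Hmgcs1 encodes the cytosolic HMG-CoA synthase, which makes the substrate of the rate-limiting reductase. It is shown first with its promoter, because it was the member whose window held the sterol regulatory element searched for. The promoters are RefSeq sequences of build GRCm38.p6, the 250 bases before the annotated start, read 5′ to 3′ on the gene's strand, with every match to a motif in capitals. Windows of 6 of the 8 genes were matched: Hmgcs1, Idi1, Lss, Srebf2, Insig1 and Insig2. The motifs were the sterol regulatory element TCACNCCAC, the NF-Y box CCAAT, which often accompanies it, the hypoxia response core ACGTG and the E-box CACGTG, which contains that core on both strands. Each was searched on both strands in windows of 300 bases that run on past the start, and a match describes letters, not a bound site.
Hmgcs1 promoter, chr13:119690101-119690350, plus strand: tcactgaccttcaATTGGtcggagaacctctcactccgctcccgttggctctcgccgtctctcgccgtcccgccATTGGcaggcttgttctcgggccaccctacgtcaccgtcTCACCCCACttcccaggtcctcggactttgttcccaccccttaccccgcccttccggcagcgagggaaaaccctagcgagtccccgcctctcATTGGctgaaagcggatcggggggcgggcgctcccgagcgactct
In all, 1.24% of 32851 such windows hold the sterol regulatory element and 37.4% an NF-Y box. In the Hmgcs1 window TCACCCCAC begins 137 bases before the start, and the NF-Y box occurs 4 times, 1 of them past the start and so not printed.

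The probe set that stands for Hmgcs1, 1433445_x_at, read 11.93 and 11.87 in wild-type normoxia and 12.42 and 11.84 in wild-type hypoxia (first and second set). The knockout arrays read 11.73 and 11.79 in normoxia and 11.98 and 11.86 in hypoxia. The array of hypoxic wild type in the first set stood above all others, and the remaining 7 overlapped between conditions. The difference over both genotypes was 0.20 ± 0.094 (SE, 4 arrays against 4, adjusted p = 0.162). The first set gave a mean response of 0.37 and the second 0.02. This value rested on single arrays. It was 0.06 without the hypoxic wild-type array of the first set (adjusted p = 0.517) and 0.33 without that of the second (adjusted p = 0.00728).

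Hmgcs1 had 5 probe sets, and they did not read alike. 1433443_a_at and 1433444_at followed the one described, with mean responses of 0.45 and 0.42 (first set) and of 0 and 0.02 (second set). 1433446_at gave 0.13 (first set) and -0.39 (second set), and -0.13 over both (adjusted p = 0.527). The dim probe set 1441536_at, whose mean of 4.45 lay below every array's median, went the other way in 4 of 4 pairs. It read 5.31 and 4.36 in normoxia and 4.6 and 3.53 in hypoxia for wild type, and 5.19 and 4.33 in normoxia and 4.81 and 3.46 in hypoxia for knockout. It fell by 0.70 ± 0.12 (SE, adjusted p = 0.00621 over all probe sets). With the mean of its probe sets in place of the brightest, the Hmgcs1 difference was -0.039, so its direction over both genotypes depends on which probe sets are read.

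Idi1 encodes isopentenyl diphosphate isomerase, which converts the 5-carbon building blocks of isoprenoids into each other. Its probe set 1451122_at read 10.76 and 10.63 in wild-type normoxia and 11.81 and 10.76 in wild-type hypoxia, and 10.92 and 10.62 in knockout normoxia and 11.51 and 10.8 in knockout hypoxia. Both hypoxic arrays of the first set stood well above the other 6, among which normoxia and hypoxia overlapped. Idi1 rose over both genotypes by 0.49 ± 0.13 (SE, adjusted p = 0.0263). Without knockout hypoxia of the second set it stood at 0.54 (adjusted p = 0.0554), and without any single first-set array at 0.32 to 0.43 (adjusted p = 0.0766 to 0.109), so 3 of the 8 fits that left out 1 array kept the call. The other probe set, 1423804_a_at, read 9.02 and 9.14 in normoxia and 10.48 and 9.44 in hypoxia for wild type, and 9.27 and 9.16 in normoxia and 10.07 and 9.36 in hypoxia for knockout. There the hypoxic arrays lay above all normoxic ones, and the difference was 0.69 ± 0.17 (SE, adjusted p = 0.0264 over all probe sets).

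Sqle encodes squalene epoxidase, which puts molecular oxygen into squalene and is a control point of the later pathway. Its only probe set, 1415993_at, read 9.5 and 10.09 in wild-type normoxia and 10.59 and 10.48 in wild-type hypoxia. The knockout arrays read 9.37 and 10.11 in normoxia and 10.28 and 10.52 in hypoxia. All 4 hypoxic arrays were above all 4 normoxic arrays. The hypoxic values lay within 0.31 of each other while the normoxic values differed by set, so the smaller response of the second set went with a higher normoxic level there. Sqle rose by 0.70 ± 0.12 (SE, adjusted p = 0.00462), and all 8 fits without 1 array called it, at 0.54 to 0.86. In wild type it rose by 0.74 ± 0.18 (adjusted p = 0.0263), and in knockout the difference was 0.66 ± 0.18 (adjusted p = 0.0516). The wild-type call was lost without normoxia of the first set (0.59), hypoxia of the first set (0.42) or normoxia of the second set (0.89).

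Lss encodes lanosterol synthase, which closes squalene epoxide into the first sterol ring system. Its probe set 1420013_s_at read 9.08 and 9.1 in wild-type normoxia and 9.72 and 8.85 in wild-type hypoxia, and 8.81 and 9 in knockout normoxia and 9.51 and 8.88 in knockout hypoxia. The sets went opposite ways: hypoxia was higher in both genotypes of the first set, by 0.64 and 0.70, and lower in both of the second, at -0.25 and -0.12. Over both sets the difference was 0.24 ± 0.16 (SE, adjusted p = 0.318). 1426913_at had the same pattern, with 0.78 (first set) and -0.09 (second set). The dim 1420014_at gave 0.40 and 0.015.

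Srebf2 encodes SREBP2 itself and is a target of its own product. Its promoter is printed because it is the gene of the factor that gives the group its name.
Srebf2 promoter, chr15:82147019-82147268, plus strand: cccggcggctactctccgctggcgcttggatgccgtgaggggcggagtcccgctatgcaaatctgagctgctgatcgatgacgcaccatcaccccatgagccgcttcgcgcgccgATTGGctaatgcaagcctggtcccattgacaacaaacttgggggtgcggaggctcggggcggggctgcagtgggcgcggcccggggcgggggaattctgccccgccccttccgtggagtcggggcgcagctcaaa
The window held 1 NF-Y box, 135 bases before the start, and no match to the other motifs. Its probe set 1426744_at read 7.4 and 8.04 in wild-type normoxia and 8.02 and 8.25 in wild-type hypoxia, and 7.33 and 7.91 in knockout normoxia and 7.82 and 8.03 in knockout hypoxia. Hypoxia was higher within each of the 4 pairs, but the normoxic arrays of the second set reached the hypoxic ones of the first. Srebf2 rose by 0.36 ± 0.096 (SE, adjusted p = 0.0242). Without any single array of the first set the difference was 0.29 to 0.31 and did not pass (adjusted p = 0.0954 to 0.106). The second probe set, 1452174_at, did not pass, at 0.15 (adjusted p = 0.35). It read 7.44 and 7.62 in normoxia and 7.46 and 8.02 in hypoxia for wild type, and 7.22 and 7.66 in normoxia and 7.25 and 7.8 in hypoxia for knockout, so its response was larger in the second set, at 0.27 against 0.025.

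Insig1 and Insig2 encode the INSIG proteins. Insig1 is a direct target of SREBP2 and so falls and rises with the pathway, whereas Insig2 is known to depend less on it. Their promoters are printed together because the genes are related. Whether their responses to hypoxia differ, and any link of a motif to a response, was not tested. For Insig2, which has 3 annotated starts, the window with motif matches is shown.
Insig1 promoter, chr5:28071162-28071411, plus strand: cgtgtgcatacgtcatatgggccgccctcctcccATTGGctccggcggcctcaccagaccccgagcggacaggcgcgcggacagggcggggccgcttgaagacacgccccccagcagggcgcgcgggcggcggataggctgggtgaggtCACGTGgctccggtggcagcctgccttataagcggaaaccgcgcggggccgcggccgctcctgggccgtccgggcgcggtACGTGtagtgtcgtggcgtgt
Insig2 promoter, chr1:121332590-121332839, minus strand: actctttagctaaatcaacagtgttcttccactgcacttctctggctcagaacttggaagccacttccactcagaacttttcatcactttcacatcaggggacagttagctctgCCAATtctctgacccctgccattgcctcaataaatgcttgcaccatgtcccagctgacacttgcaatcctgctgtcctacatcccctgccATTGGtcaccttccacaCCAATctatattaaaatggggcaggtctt
The hypoxia response core was matched in Insig1 and in none of the other windows of the group, and 19.6% of all windows hold it. Of its 4 matches in Insig1, a pair lies in the E-box 101 bases before the start, 1 lies 21 bases before the start, and 1 lies past the start and is not printed. The E-box is found in 7.15% of all windows. Insig1 had 1 NF-Y box and the Insig2 window shown 3, and the other Insig2 windows had no match. The windows of Lss and Idi1 held 1 and 2 NF-Y boxes and nothing else searched for.

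Insig1, read by 1454671_at alone, stood at 9.05 and 9.18 in wild-type normoxia and at 10.16 and 9.4 in wild-type hypoxia. In knockout it stood at 8.81 and 9.18 in normoxia and at 9.68 and 9.37 in hypoxia. No hypoxic array overlapped a normoxic one, and the lowest hypoxic value was that of the knockout in the second set. Insig1 rose by 0.60 ± 0.16 (SE, adjusted p = 0.0246). The 4 fits without an array of the first set gave 0.39 to 0.54 and did not pass (adjusted p = 0.0678 to 0.104), nor did the fit without knockout hypoxia of the second set (0.65, adjusted p = 0.0568).

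Insig2 differed little between the oxygen conditions. 1417981_at read 9.08 and 9.51 in wild-type normoxia and 9.22 and 9.63 in wild-type hypoxia, and 9.09 and 9.53 in knockout normoxia and 9.29 and 9.68 in knockout hypoxia. Each pair was higher in hypoxia, by 0.12 to 0.20, and the sets stood further apart than the oxygen conditions. The difference of 0.15 ± 0.054 did not pass (SE, adjusted p = 0.0681). A further probe set, 1417980_a_at, rose by 0.33 ± 0.070 (SE, adjusted p = 0.0147 over all probe sets). It read 7.9 and 8.37 in normoxia and 8.38 and 8.97 in hypoxia for wild type, and 8.19 and 8.64 in normoxia and 8.36 and 8.72 in hypoxia for knockout. In wild type alone it rose by 0.54 ± 0.10 (adjusted p = 0.0164), and in knockout the difference was 0.13 ± 0.10 (adjusted p = 0.573). The interaction, at -0.42 ± 0.14, missed the threshold (adjusted p = 0.998), so the genotypes are not shown to differ in it. 1417982_at gave 0.19 (adjusted p = 0.0886).

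Stard4 encodes a soluble sterol carrier that moves cholesterol between membranes and is itself a sterol-regulated gene. 1429240_at read 8.62 and 8.15 in wild-type normoxia and 9.5 and 8.73 in wild-type hypoxia, and 8.4 and 8.15 in knockout normoxia and 9.08 and 8.66 in knockout hypoxia. The hypoxic arrays lay above all normoxic ones, by a narrow margin between the hypoxic knockout of the second set and the normoxic wild type of the first. Stard4 rose by 0.66 ± 0.088 (SE, adjusted p = 0.00141), and all 8 fits without 1 array called it, at 0.57 to 0.76. It rose in wild type by 0.73 ± 0.12 (adjusted p = 0.0084) and in knockout by 0.60 ± 0.12 (adjusted p = 0.0244). The wild-type call was lost without normoxia or hypoxia of the first set or normoxia of the second (adjusted p = 0.0665, 0.0671 and 0.0559), and the knockout call without any of the 4 knockout arrays (adjusted p = 0.0741 to 0.202). 1429239_a_at rose too, by 0.49 ± 0.13 (SE, adjusted p = 0.0405 over all probe sets), and 1455011_at just missed, at 0.33 ± 0.095 (adjusted p = 0.0517).

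Over all 20 probe sets, 8 were called higher with hypoxia and 1 lower, against 7.49% and 8.31% of all probe sets. Of the 20, 11 were higher in 4 of 4 pairs, a count for which the share over all probe sets was not made. The 20 come from 8 genes and so partly repeat each other. Among the genes with several probe sets, those of Hmgcs1 spread most widely, and the probe sets of Srebf2, and by a small margin those of Insig2, disagreed on which set responded more.

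**Figure D2:**
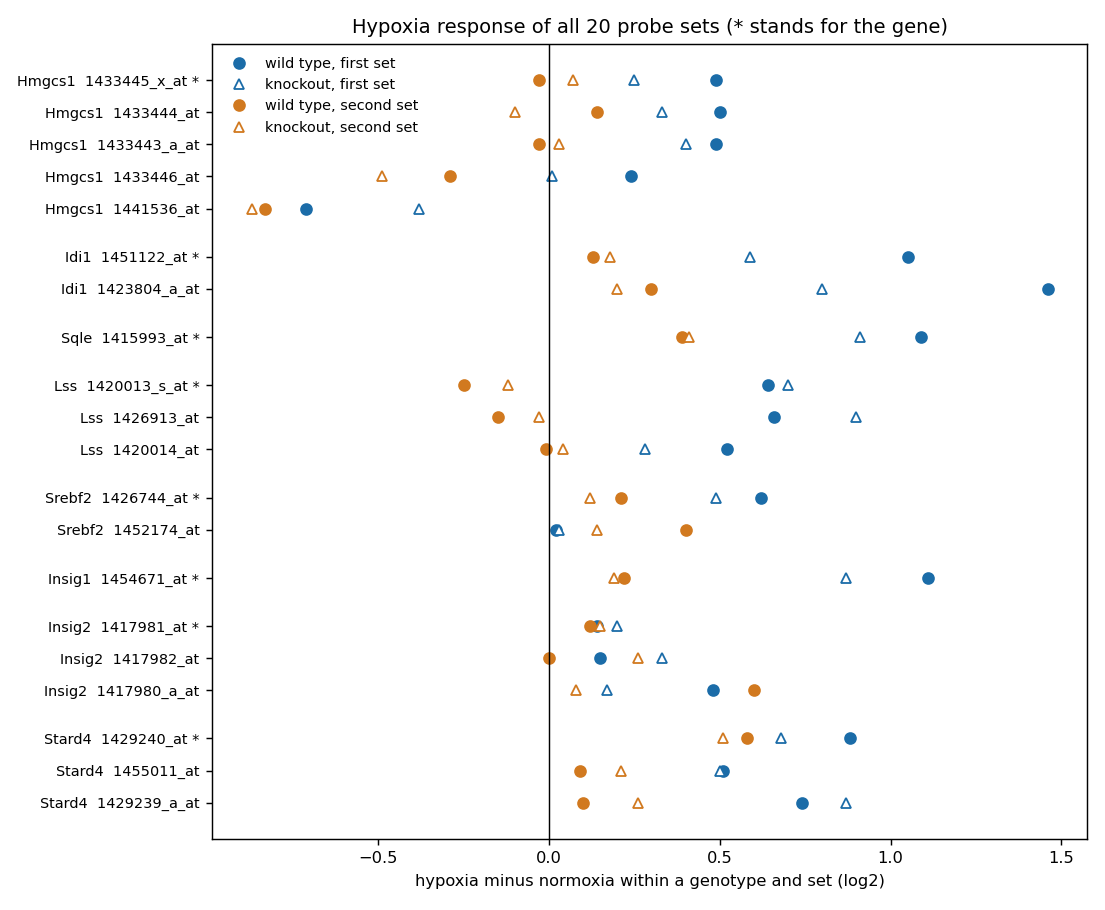
Hypoxia minus normoxia in log2 (horizontal axis) for each of the 20 probe sets (rows, grouped by gene, with an asterisk on the one that stands for the gene); filled circles are wild type and open triangles knockout, blue for the first set and orange for the second. Most blue symbols lie to the right of the orange ones in the same row, and the lowest Hmgcs1 row lies wholly to the left of 0.

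Taken by genotype, 2 of the 8 genes rose in wild type, Sqle and Stard4, against 16.4% of all genes in either direction and 7.54% higher. In knockout 1 rose, Stard4, against 10.1% and 4.98%. The median difference was 0.50 in wild type and 0.35 in knockout. In wild type Idi1 stood at 0.59 ± 0.19, Insig1 at 0.67 ± 0.23 and Srebf2 at 0.42 ± 0.14 (SE, adjusted p = 0.0671, 0.0826 and 0.0734). Their knockout differences were 0.39, 0.53 and 0.31 (adjusted p = 0.234, 0.181 and 0.198). The lower count in knockout does not show a difference between the genotypes. By the genotype-by-oxygen interaction in limma, 0 of the 8 and 0% of all genes were called, and 0 of the 8 had an unadjusted p under 0.05, against 2.41% of all genes. The interaction of the 8 lay between -0.21 and 0.095.

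Knockout against wild type called 0 of the 8 genes in normoxia, in hypoxia and over both, against 0.0366%, 0.0293% and 0.256% of all genes. By limma, 0 of the 8 had an unadjusted p under 0.05 in any of these, against 10.2% of all genes over both oxygen conditions. The values leaned to one side without passing. Over both conditions 7 of the 8 were negative, from -0.19 for Insig1 to 0.038 for Insig2, with adjusted p of 0.544 to 0.968. Their median was -0.15, against -0.0075 over all tested genes, and the share of all genes that were negative was not counted. The lean was wider in the first set. Within a set and oxygen condition, though, 1 array is set against 1 array. The 8 genes share those arrays, so the counts below are not independent readings of the genotype. Their shares over all genes were not counted. There 6 of the 8 genes were lower in knockout in normoxia, with a median of -0.17. In hypoxia 7 of the 8 genes were lower in the hypoxic knockout than in the hypoxic wild type, with a median of -0.31, and the widest gaps were those of Insig1 at -0.48, Hmgcs1 at -0.44 and Stard4 at -0.42. In the second set 4 of 8 were lower in normoxia and 3 of 8 in hypoxia, with medians of -0.005 and 0.025. Whether the genotype differences of the sets differ was not tested. In a fit of the first set alone, chosen after the data were seen, none of the 8 was called by genotype either, with a lowest adjusted p of 0.077 and 3.54% of all genes called. In the second set alone 0% were called.

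**Figure D3:**
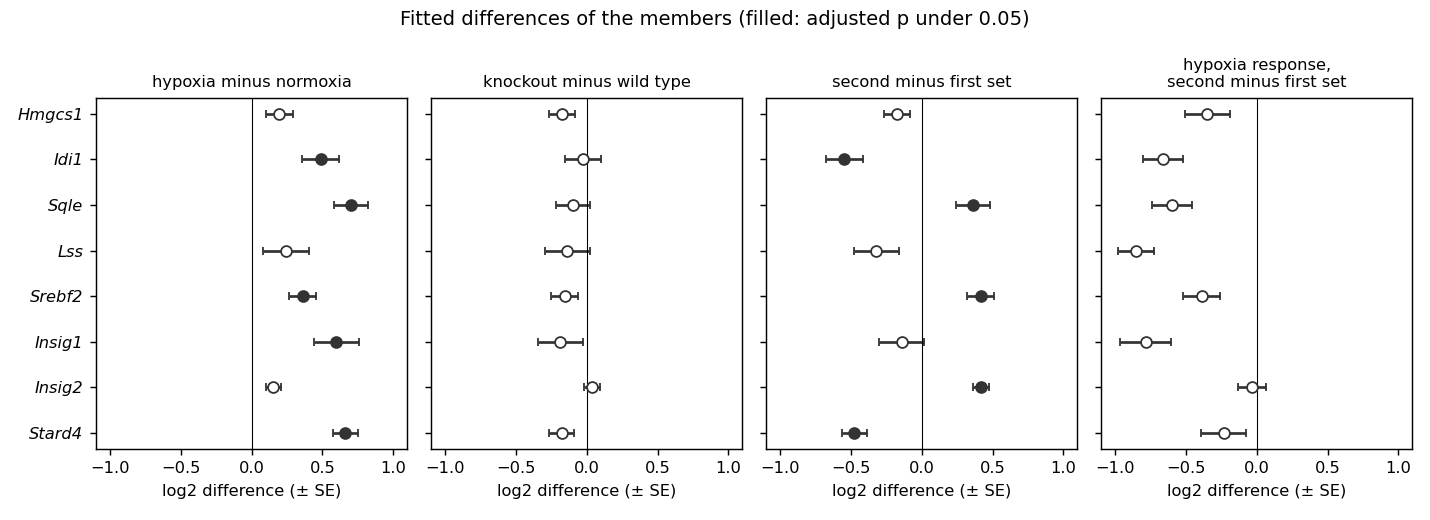
Fitted log2 differences of the 8 genes (horizontal axis, with bars of 1 SE) in 4 comparisons, 1 panel each: hypoxia minus normoxia, knockout minus wild type, second minus first set, and the hypoxia response of the second minus that of the first set. Filled points passed an adjusted p of 0.05; 5 genes passed for oxygen, 5 for set, and none for genotype or for the difference in response.

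The size of the hypoxia response differed between the sets in the measured values. Sqle responded by a mean of 1.0 (first set) and 0.40 (second set), Insig1 by 0.99 and 0.21, Idi1 by 0.82 and 0.16, and Lss by 0.67 and -0.19. Stard4 (0.78 and 0.55) and Insig2 (0.17 and 0.14) changed least between sets. All 8 genes had the larger response in the first set, while 54.5% of all tested genes did. Of the 20 probe sets, 18 had it, with no share over all probe sets made. A response of at least 0.5 in the first set and under 0.25 in the second was found for 4 of the 8 genes. They were Idi1, Lss, Insig1 and Srebf2, and 135 of all tested genes (0.989%) met the same limits. This description was chosen after the values were seen, so the share over all genes does not test the 8. That share also depends on how many genes reach 0.5 in the first set, which was not counted. The HIF-responsive check genes, with medians of 3.46 (first set) and 3.39 (second set), lie far above these limits. They could meet this description only if their response nearly vanished in the second set, so it says little about them.

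The test of that difference, an oxygen-by-set term in limma with 2 residual degrees of freedom, called 0 of the 8 and 0% of all genes. At an unadjusted p under 0.05 it held 5 of the 8 genes, all with the smaller response in the second set, against 5.54% of all genes and 3.14% in that direction. Lss had the largest difference at -0.86 ± 0.13 (SE, unadjusted p = 0.000613, adjusted p = 0.756), then Insig1 at -0.79, Idi1 at -0.67, Sqle at -0.60 and Srebf2 at -0.39. Adjusted p of the 8 lay between 0.756 and 0.974, so none of these differences passes over all genes. Within the first set alone, 7 of the 8 genes were called higher, all but Insig2, against 8.57% of all genes. Within the second set alone 2 were, Sqle (adjusted p = 0.0308) and Stard4 (adjusted p = 0.0301), against 7.61%. These single-set fits take the genotypes as replicates of each other, leave 1 residual degree of freedom and were chosen after the data were seen.

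Levels also differed between the sets over all conditions, as they did for 46.1% of all genes, 25.4% higher and 20.7% lower in the second set. Insig2 was higher in the second set by 0.42 ± 0.054 (SE, adjusted p = 0.000444), Srebf2 by 0.42 ± 0.096 (adjusted p = 0.0079) and Sqle by 0.37 ± 0.12 (adjusted p = 0.0416). Idi1 was lower there by 0.55 ± 0.13 (adjusted p = 0.00979) and Stard4 by 0.48 ± 0.088 (adjusted p = 0.00266). So the set shifted these genes in both directions. The Sqle call was lost in 6 of the 8 fits without 1 array, those without a normoxic array or a hypoxic knockout array of either set (0.24 to 0.41).

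Several other measures moved with oxygen or set on the same arrays. The 3′ minus 5′ log2 difference of the control probe sets, a sign of RNA integrity, was higher in hypoxia in all pairs. For Actb the rise was 0.17 and 0.10 in the first set (wild type and knockout) and 0.16 and 0.16 in the second. For Gapdh it was 0.13 and 0.04 in the first set and 0.33 and 0.27 in the second. The difference itself was 0.53 to 0.73 (first set) and 0.31 to 0.47 (second set) for Actb. For Gapdh it was 0.33 to 0.52 and 0.14 to 0.47. All 10 macrophage markers were measured and none fell below the filter. Their summed level, as log2 of the summed linear values, was 11.9 and 10.38 in wild-type normoxia, 11.34 and 10.08 in wild-type hypoxia, 10.1 and 9.38 in knockout normoxia and 9.96 and 9.17 in knockout hypoxia. The hypoxic array was thus the lower of each pair, and the knockout arrays were lower than the wild-type arrays of their set. Of 5 measured adipocyte markers 2 fell below the filter. The summed level of the 5 was 10.43 and 9.85 in wild-type normoxia and 10.14 and 9.78 in wild-type hypoxia. In knockout it was 9.86 and 9.52 in normoxia and 9.89 and 9.59 in hypoxia. It was thus lower in hypoxia in wild type and higher in knockout. The mean of their log2 values, another measure, rose in each pair. By it these markers gave 0.38 and 0.17 in the first set (wild type and knockout) and 0.16 and 0.084 in the second. Among them Fabp4, a fatty acid carrier, rose by 1.03 ± 0.25 (SE, adjusted p = 0.0172), at 1.44 (first set) and 0.62 (second set), and Lpl, the lipoprotein lipase, fell by 0.45 ± 0.13 (adjusted p = 0.0378).

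Some markers of fibroblasts and of other cell types moved with the set, as did 46.1% of all genes. Of the 10 fibroblast markers, 4 were higher and 2 lower in the second set. Of 5 tested hepatocyte markers 0 were called by set, and of 5 tested epithelial markers 1 was. Of the 10 macrophage markers, 8 were lower in the second set, against 20.7% of all genes. By genotype over both oxygen conditions, 6 of the 10 macrophage and 2 of the 10 fibroblast markers were lower in knockout. Over all genes 0.256% were called by genotype in either direction. Of 6 skeletal muscle markers 2 fell below the filter, and their summed level was 9.57 to 10.32 in the first set and 11.06 to 11.63 in the second. Of the 4 tested muscle markers only 1 was called by set and 3 were not. It was Acta1, the skeletal actin, higher in the second set by 1.94 (adjusted p = 8.7e-06). Myog, a myogenic factor, differed between knockout and wild type by -3.97 (first set) and 0.45 (second set) over both oxygen conditions. Of 5 endothelial markers 3 fell below the filter, and both others, Kdr and Tek, were lower in the second set, by 0.90 and 0.56. The part of these measures in the sterol gene results was not tested.

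The remaining genes of sterol synthesis, SREBP control and cholesterol uptake and transport moved less as a whole. Of 46 such genes listed, 40 were tested, and 7 rose, 4 fell and 29 did not pass over both genotypes, with a median of 0.059, where 13.6% of all genes rose and 15.2% fell. Those that rose or fell in wild type or in knockout are described by role.

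Among 5 further tested genes from acetyl-CoA to farnesyl diphosphate and its branch, 1 rose. Ggps1, which makes geranylgeranyl diphosphate, read 8.35 and 8.43 in normoxia and 9 and 8.97 in hypoxia for wild type, and 8.63 and 8.49 in normoxia and 8.84 and 8.98 in hypoxia for knockout. It rose by 0.47 ± 0.070 (SE, adjusted p = 0.00209), with no overlap between conditions, but its 3 other probe sets gave -0.19, -0.02 and 0.06 and were not called. Among 10 further genes from squalene to cholesterol, 1 rose. Dhcr7, a reductase of the final steps, read 8.1 and 8 in normoxia and 8.91 and 8.35 in hypoxia for wild type, and 7.79 and 7.81 in normoxia and 8.62 and 8.23 in hypoxia for knockout. It rose by 0.60 ± 0.10 (SE, adjusted p = 0.00382), and by 0.82 in the first set against 0.39 in the second, much as Sqle did.

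Most of the further synthesis genes also had the smaller response in the second set, with Ggps1 (0.43 and 0.52) as the exception, and none passed the oxygen-by-set test. In the first set all 5 further genes of the earlier and all 10 of the later stage had a positive response. Their medians were 0.43 and 0.38, against 0.02 over all tested genes. In fits of that set alone 2 and 5 of them were called higher, against 8.57% of all genes. In the second set 2 of 5 and 2 of 10 were positive, with medians of -0.11 and -0.17, against -0.01 over all tested genes. There 1 of the earlier genes was called higher, and of the later ones 1 was called higher and 2 lower. Over all genes 7.61% were called higher in the second set alone, and the share called lower is not given here. These single-set fits leave 1 residual degree of freedom and were chosen after the data were seen. The share of all genes with a positive response was not counted in either set. Of the 4 genes whose enzymes use molecular oxygen in sterol synthesis, which are Sqle and 3 others, all were positive in the first set and Sqle alone in the second, with medians of 0.38 and -0.19. For comparison, named after their values were seen, Mvd, the mevalonate diphosphate decarboxylase, stood at 0.65 and -0.11 and Fdft1, the squalene synthase, at 0.70 and 0.06.

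**Figure D4:**
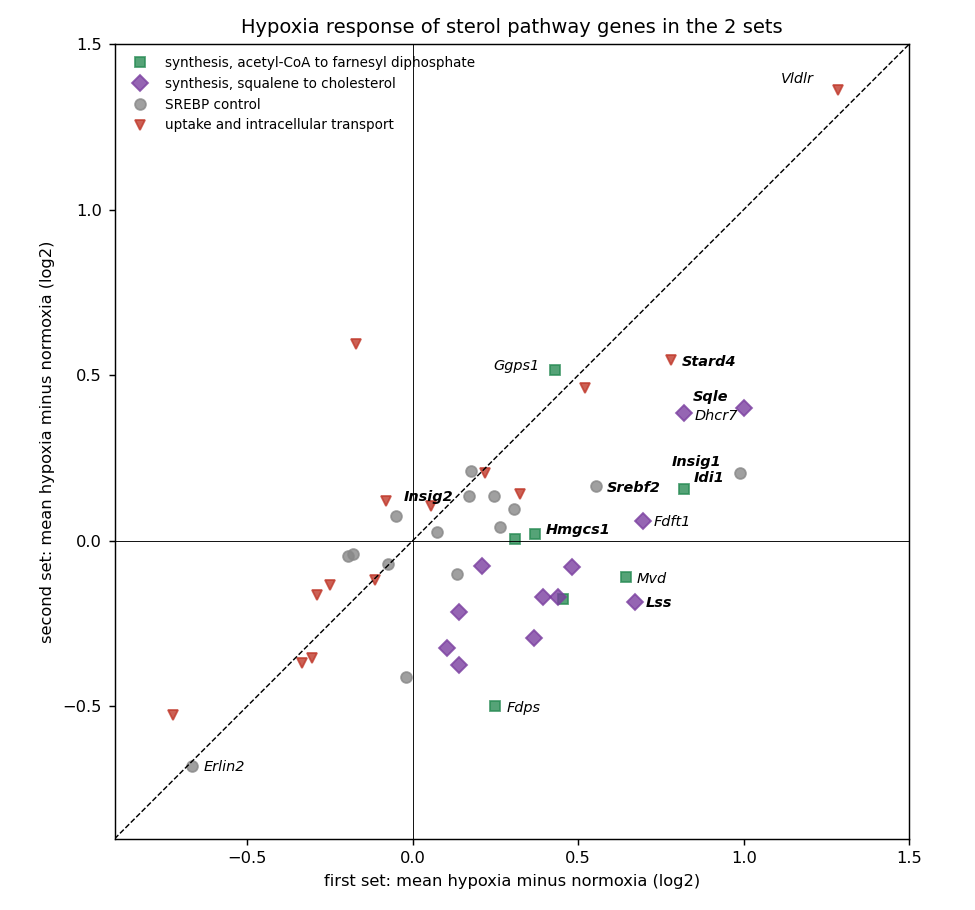
Mean hypoxia minus normoxia in log2 in the first set (horizontal axis) against the second set (vertical axis) for each tested sterol gene, with green squares and purple diamonds for the earlier and later synthesis steps, grey circles for SREBP control and red triangles for uptake and transport; the 8 genes are in bold and the dashed line marks equal responses. Nearly all synthesis genes lie below the line, whereas Vldlr and Erlin2 lie close to it.

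In SREBP control, 12 further genes were tested, and 2 rose, 1 fell and 9 did not pass. Erlin2, part of a membrane complex that links INSIG and the sterol reductase to degradation, fell by 0.67 ± 0.074 (SE, adjusted p = 0.000649). It read 8.66 and 9.02 in normoxia and 7.95 and 8.41 in hypoxia for wild type, and 8.88 and 9.14 in normoxia and 8.26 and 8.39 in hypoxia for knockout. Its response was alike in the sets, at -0.67 and -0.68. Scap, the escort of SREBP, differed by 0.013 ± 0.072 (adjusted p = 0.925), and Srebf1, which encodes the SREBP1 factors of fatty acid synthesis, by 0.20 ± 0.066 (adjusted p = 0.0529).

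In uptake and transport, 13 further genes were tested, and 3 rose, 3 fell and 7 did not pass. Vldlr, a receptor for triglyceride-rich lipoproteins, rose by 1.32 ± 0.063 (SE, adjusted p = 1.43e-05). It read 9.5 and 9.69 in normoxia and 10.91 and 11.28 in hypoxia for wild type, and 9.64 and 9.74 in normoxia and 10.8 and 10.87 in hypoxia for knockout, and its mean response was 1.29 (first set) and 1.36 (second set). Gramd1b, which moves cholesterol from the plasma membrane to the endoplasmic reticulum, rose by 0.49 ± 0.090 (adjusted p = 0.00532). Its other probe set gave 0.25 and was not called (adjusted p = 0.222 over all probe sets). The related Gramd1c fell by 0.63 ± 0.12 (adjusted p = 0.00737). Its probe set was dim, with a mean of 4.28 that lay below every array's median. The Gramd1c pairs gave -0.80 and -0.65 in the first set (wild type and knockout) and -0.19 and -0.86 in the second. Npc1, which exports cholesterol from lysosomes, rose by 0.21 ± 0.063 (adjusted p = 0.0357), and its partner Npc2 fell in wild type (-0.21 ± 0.055, adjusted p = 0.0355) with -0.025 in knockout, and its further probe sets gave -0.39 to 0.38 over both. Osbpl2, an oxysterol-binding protein gene, fell by 0.33 ± 0.070 (adjusted p = 0.00937). Lipa, the lysosomal acid lipase, has no settled direction. The probe set used gave -0.35 (adjusted p = 0.00405), and its others gave 0.73 and 0.29 (adjusted p = 0.0015 and 0.0341 over all probe sets).

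The profile of the 8 genes over the arrays, each gene centred on its own mean, was -0.25 and -0.10 in wild-type normoxia and 0.51 and 0.07 in wild-type hypoxia (first and second set). In knockout it was -0.37 and -0.14 in normoxia and 0.22 and 0.052 in hypoxia. The order within the first set was hypoxic wild type, hypoxic knockout, normoxic wild type and normoxic knockout, and the second set had the same order over a narrower range. Within each set the step between the genotypes was smaller than that between oxygen conditions. The step between genotypes does not pass a test, as given above.

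By Pearson's r with this profile over the 8 arrays, among 7453 genes with an SD of at least 0.2, the nearest genes outside the group were Rab33a (0.982), Bag4 (0.973) and Rpl14 (0.972). Next came Tmem97 (0.956), which encodes an endoplasmic reticulum sterol-binding protein regulated by sterols, then Pdp2, Eif2ak1, Abcb6 and Anp32a, and Dhcr7 and Anapc11 at 0.942 each. In all, 44 genes had r over 0.9. With 8 arrays that share oxygen condition and set, such values are a description of this table. Taken alone, Lss was nearest to the synthesis genes Mvd (0.95) and Fdft1 (0.947), Sqle to Tatdn2 (0.988), Insig2 to Smarcd3 (0.997) and Stard4 to Chrac1 (0.993).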

How the data were processed

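RNA of 8 mouse embryonic fibroblast samples, grouped by the labels, was read on 8 one-colour Affymetrix arrays. The deposited table holds log2 values per probe set, made with RMA per the submitters' processing notes. The sources used here name no genome build and do not say whether all arrays were normalised together. Since RMA forces arrays to a common distribution, a shift common to all transcripts would not show. For arrays, their number limits the precision.

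Of 45037 probe sets, 34945 had exactly 1 symbol in the platform annotation, 932 had several and 9160 were not listed there. A RefSeq table supplied current symbols by Entrez identifier (34741 matched). A gene was read by its probe set of highest mean, and genes below the 25th percentile were left out. With R 4.3.3 and limma 3.58.1, group means plus a set term were fitted to all 8 arrays, then eBayes with a trend (3 residual and 5.22 prior degrees of freedom). The scripts were tested on simulated data. A fit of all probe sets used no filter. All p-values are two-sided. The set is a term because same-numbered arrays deviated together in each of the 6 pairs of groups (r of 0.71 to 0.85).

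Members, lists and tests were chosen with earlier results of these data known. Other genes are named where called in wild type or knockout, or listed by name beforehand (Scap, Srebf1), with exceptions stated. Genes most like the members were ranked by Pearson's r, the first 10 for the group and 3 per member, leaving out unnamed transcripts. Alternatives were no set term, a random set block, the arrays of a contrast alone, no filter, the mean of a gene's probe sets, no trend, quantile normalisation and leaving out each array.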

Additional observations from a re-analysis of the deposited data

Results flagged for a closer look

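The Lss response to hypoxia was 0.67 (first set) and -0.19 (second set), positive in both genotypes of the one and negative in both of the other, a difference of -0.86 that did not pass in the oxygen-by-set test (adjusted p = 0.756). Sqle was lower in knockout in both oxygen conditions of the first set, at -0.13 and -0.31, and higher in both of the second, at 0.02 and 0.04. This difference of 0.25 between the sets was not tested, and neither set alone called Sqle by genotype (adjusted p = 0.207 and 0.84).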

How the results depend on the processing

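With no replicate block (no set term), 0 members passed for oxygen (wild type, knockout or both), with 20, 12 and 99 genes called in all, as did 0 member probe sets (113 in all) and 1 of the other pathway genes. A random block left 1 member called for wild type, 0 for knockout and 3 over both, with 1133, 517 and 2845 genes. The arrays of a contrast alone called 0 members in wild type and 0 in knockout (487 and 53 genes). The mean of a gene's probe sets gave 1 and 0, and turned Hmgcs1 to -0.003 (wild type), -0.075 (knockout) and -0.039 (both). Without the trend the counts were 1, 0 and 3, and quantile normalisation gave 2 in knockout. The second set alone called 2 members and turned Lss to -0.185 for oxygen and Sqle and Idi1 to 0.030 and 0.015 for genotype. The cause was not tested.

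Leaving out 1 array called 0 to 5 members for wild type, 0 to 2 for knockout and 2 to 6 over both, 4 to 5 by set, 8 to 11 of the other pathway genes and 3 to 13 member probe sets. It called 0 members by genotype, interaction or oxygen-by-set. Some values changed sign among these fits. For oxygen, Hmgcs1 in wild type ran from -0.04 to 0.5, Lss in wild type from -0.17 to 0.56 and Lss in knockout from -0.0517 to 0.6317. For genotype, Idi1 ran from -0.195 to 0.14, Insig1 from -0.3933 to 0.0183, Lss from -0.32 to 0.045 and Sqle from -0.2533 to 0.0633. For set, Insig1 ran from -0.3133 to 0.0633. Of the other results for single genes, 331 with 1 array left out and 267 under the other alternatives kept direction and side of the threshold, 30 and 26 dropped below it, and 8 and 5 passed it.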

Other observations

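Among 10 tested sterol efflux, storage and LXR genes, 1 rose and 3 fell with hypoxia over both genotypes, where 13.6% of all genes rose and 15.2% fell. Abcg1, an exporter of cholesterol to lipoproteins, rose by 1.09 ± 0.10 on the log2 scale (SE, limma adjusted p = 0.00033). Its response was 0.91 (first set) and 1.26 (second set). Its other probe set, which was dim, gave 0.36 and was not called (adjusted p = 0.128 over all probe sets). Ch25h, which makes 25-hydroxycholesterol, an oxysterol that holds SREBP back, fell by 0.53 ± 0.080 (adjusted p = 0.00225), with -0.51 and -0.56. Abca1, another exporter of cholesterol, fell by 0.60 ± 0.13 (adjusted p = 0.011), with -0.90 and -0.31. Its further probe sets, both dim, gave -0.065 and 0.09 and were not called. Cyp7b1, an oxysterol hydroxylase, fell by 0.31 ± 0.095 (adjusted p = 0.0397), with -0.38 and -0.25. In the fit of all probe sets its probe set did not pass (adjusted p = 0.0707), and the others gave -0.215 and -0.04.

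Of 16 tested fatty acid synthesis and SREBP1 target genes, 5 rose and 2 fell, against the same shares. Fasn, the fatty acid synthase, rose by 0.42 ± 0.056 (adjusted p = 0.0015), at 0.47 (first set) and 0.36 (second set). Acly, which supplies cytosolic acetyl-CoA, rose by 0.34 ± 0.072 (adjusted p = 0.00975), with 0.50 and 0.18, and the elongase Elovl5 fell by 0.44 ± 0.085 (adjusted p = 0.00671). Over the 16 genes the median response was 0.30 (first set) and 0.0075 (second set). The differences between the sets for these genes did not pass the oxygen-by-set test, which called none of the 13647 genes.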
